A study of Mus musculus with 8 samples.

Results

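The serine synthesis and one-carbon enzymes were followed in mouse T cells that carried or lacked SDHA, the catalytic subunit of succinate dehydrogenase, through 8 genes taken by name from the 20170 genes of a single-cell count matrix. Serine synthesis was represented by 3 of them (Phgdh, Psat1 and Psph), the mitochondrial one-carbon pathway by 3 (Shmt2, Mthfd2 and Mthfd1l) and the cytosolic pathway by 2 (Shmt1 and Mthfd1). T cells were purified from spleens of WT mice and of Sdha fl/fl CD4-Cre mice (SDHA-KO), all C57BL/6 and 8 to 12 weeks old. They were profiled either unstimulated or after 48 h with antibodies to CD3 (5 μg/mL) and CD28 (2.5 μg/mL). Together these mimic engagement of the T cell receptor and of a costimulatory receptor. Each of the 4 groups held 2 libraries, and the labels do not say whether these came from different mice, so p-values measure the spread between libraries only. Cre was driven by Cd4 regulatory sequences, which are active in thymocytes before CD4 and CD8 cells separate, and γδ T cells need not pass through that stage.

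Serine is made from a phosphoglycerate of glycolysis. Phgdh oxidises it, Psat1 adds an amino group taken from glutamate, and Psph removes the phosphate. Serine then passes a carbon unit to tetrahydrofolate and leaves glycine behind, a step that Shmt2 carries out in mitochondria and Shmt1 in the cytosol. In mitochondria Mthfd2 oxidises the folate-bound unit and Mthfd1l releases it as formate, which Mthfd1 loads back onto folate in the cytosol for the synthesis of purines and thymidylate. Activated T cells are known for raising these enzymes as they enter the cell cycle.

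On mouse build GRCm38 the serine synthesis genes lay on separate chromosomes, with Phgdh at chr3:98313170-98339990 (minus strand), Psat1 at chr19:15904678-15947337 (minus strand) and Psph at chr5:129765558-129787449 (minus strand). The mitochondrial enzymes were Shmt2 at chr10:127517123-127522444 (minus strand), Mthfd2 at chr6:83305691-83325908 (minus strand) and Mthfd1l at chr10:3973118-4167081 (plus strand). The cytosolic enzymes were Shmt1 at chr11:60788104-60811718 (minus strand) and Mthfd1 at chr12:76255298-76319803 (plus strand). Several shared bases with a gene on the opposite strand, from 32 bases between Shmt2 and Ndufa4l2 to 19090 between Mthfd1 and Gm34868. Whether reads were counted by strand is not given in the sources used here. Mthfd2 shared 2799 bases with Gm43890, and Mthfd1l shared 444 with Gm16074 and 157 with Gm25515. These lie on the same strand, so strand cannot separate them.

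UMIs (unique transcript counts) were summed over the cells of each library within the deposited CD4 and CD8 class, which gave 16 sums from 12846 cells. Libraries held 1395 to 1801 cells and 10947009 to 51398728 UMIs, and 23 of 12823 cell barcodes occurred in more than 1 library. Levels are given as CPM, UMIs scaled to the TMM-adjusted total of the class sum, so fewer cells of a type and less RNA per cell cannot be told apart. Sdha, the gene under deletion, measured 101 and 100.1 CPM in unstimulated WT CD4 cells and 49.8 and 49.4 CPM in SDHA-KO, and 74.0 and 73.1 against 26.5 and 26.4 CPM after stimulation. In CD8 cells it stood at 91.4 and 95.7 against 39.0 and 37.6 CPM unstimulated and 76.2 and 74.9 against 53.3 and 50.4 CPM stimulated. Sdha was thus lower in both SDHA-KO libraries in every comparison, with the smallest gap in stimulated CD8 cells, although counts from the 3′ end cannot tell a recombined transcript from an intact one.

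Some properties of the libraries moved with genotype and stand beside the results that follow. The median share of mitochondrial UMIs per cell after stimulation was 17.9% and 16.2% in the WT libraries and 2.29% and 2.20% in the SDHA-KO libraries. Median UMIs per stimulated cell were 13809 and 13745 in WT and 25116.5 and 25465.5 in SDHA-KO libraries. Mean UMIs went the other way in CD4 cells, at 29433 and 30080 in WT and 24770 and 26548 in SDHA-KO. In CD8 cells the means were 24784 and 26752 in WT and 36973 and 36824 in SDHA-KO. The summed level of 6 γδ T cell markers found in the matrix, Trdc among them, was 18.1 to 21.2 CPM in stimulated WT and 254 to 261 CPM in stimulated SDHA-KO cells of the CD8 class, where 5 to 6 of them were detected in WT and all 6 in SDHA-KO. In the CD4 class the same sum was 5.42 to 6.22 against 16.2 to 21.4 CPM. The defining markers Cd8a and Cd8b1 together reached 464 to 499 CPM in the stimulated WT CD8 class and 211 to 273 CPM in SDHA-KO, and Cd4 with Zbtb7b reached 108 to 111 and 164 to 171 CPM in the CD4 class. Before stimulation the γδ sum was 26.3 to 28.8 CPM in WT and 174 to 234 CPM in SDHA-KO cells of the CD8 class and 10.7 to 14.2 and 32.1 to 39.7 CPM in the CD4 class, where Cd4 with Zbtb7b was 189 to 191 and 583 to 662 CPM. After stimulation, proliferation markers (8 genes, Mki67 among them) summed to 1305 to 1329 CPM in WT and 1430.1 to 1559 CPM in SDHA-KO CD4 cells, and to 1396 to 1435 and 1496 to 1583 CPM in CD8 cells. Mki67 itself stood at 224 and 232 CPM in WT and 196 and 169 CPM in SDHA-KO CD8 cells, a log2 fold change of -0.32 ± 0.11 (SE, adjusted p = 0.0368) against the direction of the sum. The CD4 values, 202 and 208 CPM for WT against 208 and 167 CPM for SDHA-KO, overlapped and the gene was not called, at -0.13 ± 0.11 (SE, adjusted p = 0.359). The 6 B cell markers summed to 50.0 to 53.7 CPM in the stimulated WT CD8 class, with 3 to 4 detected, and 64.1 to 345 CPM in SDHA-KO, with 5 to 6 detected, and the 5 NK cell markers to 18.8 to 22.7 and 41.7 to 51.2 CPM there and to 3.71 to 5.46 and 11.3 to 12.5 CPM in the CD4 class. The 8 myeloid markers summed to 2.10 to 2.77 against 5.37 to 6.75 CPM in stimulated CD4 and 2.44 to 3.50 against 4.82 to 5.83 CPM in stimulated CD8 cells. The part of these markers in the results was not tested as a cause. Fits over cells without a Trdc UMI and over cells without an Mki67 UMI are given below.

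Stimulation raised all 8 enzymes in WT cells of both classes. In CD4 cells 8 of 8 passed the test (edgeR quasi-likelihood test, Benjamini-Hochberg adjusted p under 0.05 over all genes, here termed called), where 66.3% of all genes tested were called and 36.2% were higher. Psat1 rose most, with a log2 fold change of 4.24 ± 0.11 (SE, adjusted p = 1.91e-10), followed by Shmt1 at 3.31, Shmt2 at 3.20 and Phgdh at 2.90. Mthfd1, the cytosolic enzyme that uses formate, rose least, by 1.27 ± 0.13 (SE, adjusted p = 4.60e-06). The median log2 fold change of the 8 was 2.62, against 0.081 over all genes tested. In CD8 cells 8 of 8 were called as well (65.7% of all genes, 35.5% higher), between 1.25 for Mthfd1 and 3.88 for Psat1, with a median of 2.43, against 0.088 over all genes tested.

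SDHA-KO cells also raised all 8 enzymes on stimulation, in CD4 cells (69.8% of all genes called, 36.6% higher) and in CD8 cells (68.2% called, 37.2% higher). In CD4 cells the rise was 1.14 ± 0.11 (SE, adjusted p = 2.40e-06) for Psph and 1.24 ± 0.089 (SE, adjusted p = 2.24e-07) for Mthfd1l, the lowest values, and 3.11 ± 0.13 (SE, adjusted p = 4.32e-09) for Shmt1, the highest. In CD8 cells it ran from 1.05 for Psph to 3.33 for Shmt1. The size of the rise is read here on the scale of shares of all UMIs. Counted per cell rather than as CPM, the median gene rose by 2.30 in WT and 1.81 in SDHA-KO CD4 cells, with more UMIs in each stimulated cell, and by 2.02 and 2.16 in CD8 cells.

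**Figure D1:**
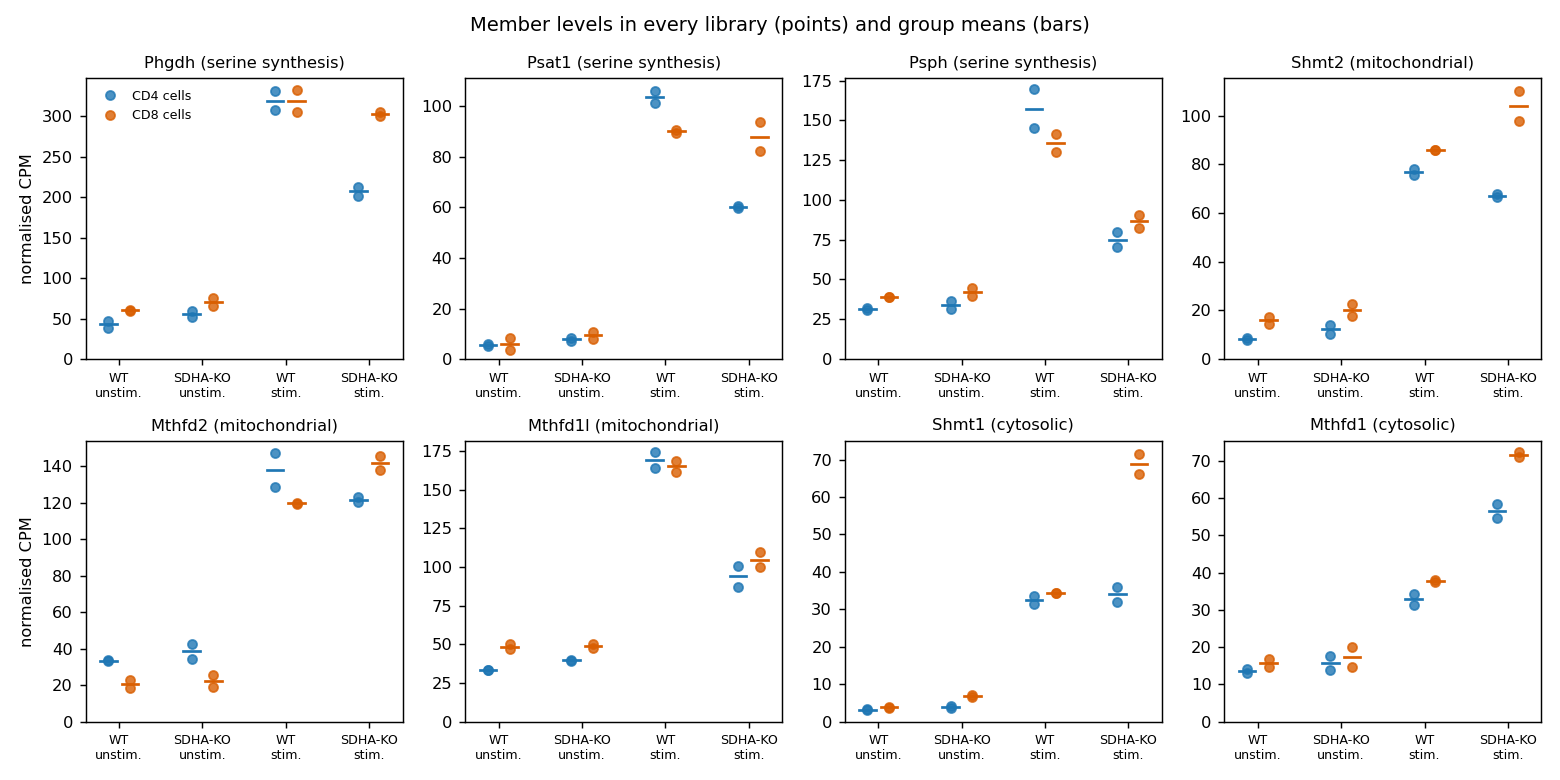
Normalised CPM of the 8 enzymes (1 panel each, linear axis) by group, with 1 point per library and a bar at the mean of 2 libraries, blue for CD4 and orange for CD8 cells. Stimulated libraries sit above unstimulated ones in every panel, and in CD4 cells the stimulated SDHA-KO points of Psph lie at 79.8 and 70.2 CPM against 169 and 145 CPM in WT.

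Before stimulation no enzyme was called between SDHA-KO and WT. In CD4 cells 0 of 8 passed edgeR's test at 1.1% called over all genes, 4 had an unadjusted p under 0.05, and DESeq2 called 0. The 8 log2 fold changes lay between 0.13 and 0.53, all on the positive side, with a median of 0.27, against 0.029 over all genes tested. For Phgdh, the first enzyme of serine synthesis, the value was 0.38 ± 0.11 (SE, adjusted p = 0.128), and for Shmt2, the mitochondrial enzyme that splits serine, 0.53 ± 0.16 (SE, adjusted p = 0.146). In CD8 cells 0 of 8 were called at 0.947% over all genes, 1 had an unadjusted p under 0.05 and DESeq2 called 0, with values between 0.013 for Mthfd1l and 0.82 for Shmt1. The median was 0.18, against 0.00 over all genes tested. Counts were thin here, down to 12 UMIs for Psat1 in 1 unstimulated WT CD8 sum, which limits what could be detected. Scaled by the number of cells, 5 enzymes were called higher in SDHA-KO CD4 cells and 4 in CD8 cells, on a scale where 19.9% and 19.0% of all genes were called and the median gene was itself higher by 0.28 and 0.33. Phgdh in CD4 cells, for example, gave 0.63 on that scale.

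After stimulation the enzymes differed between SDHA-KO and WT CD4 cells in both directions. All 3 serine synthesis enzymes and the mitochondrial formate-releasing enzyme Mthfd1l were lower in SDHA-KO, the cytosolic enzyme Mthfd1 was higher, and Shmt1, Shmt2 and Mthfd2 were not called. That is 5 of 8 called, 1 higher and 4 lower, where 43.2% of all genes were called, 22.7% higher and 20.5% lower. The median log2 fold change of the 8 was -0.41, against -0.00094 over all genes tested. The summed level of the 3 serine synthesis genes was 581 ± 37.2 CPM in WT and 343 ± 0.548 CPM in SDHA-KO (mean ± SD, n = 2). The cytosolic pair summed to 65.2 ± 3.43 and 90.6 ± 5.73 CPM. These comparisons share the stimulated SDHA-KO and WT libraries with the comparisons between states above. Whether libraries of the genotypes overlapped is given below as description only. The share of all genes without overlap, with 2 libraries a group, was not counted.

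Phgdh measured 47.0 and 38.8 CPM in WT and 58.9 and 52.6 CPM in SDHA-KO libraries before stimulation, and 332 and 308 CPM in WT and 202 and 213 CPM in SDHA-KO libraries after it. Stimulated SDHA-KO libraries thus lay below both stimulated WT libraries and above every unstimulated one, with a log2 fold change against stimulated WT of -0.62 ± 0.087 (SE, adjusted p = 0.000218). Psat1 measured 5.13 and 5.84 CPM in WT and 7.28 and 8.21 CPM in SDHA-KO libraries before stimulation, and 106 and 102 CPM in WT and 60.5 and 59.9 CPM in SDHA-KO libraries after it. This aminotransferase fell too, at -0.79 ± 0.072 (SE, adjusted p = 1.39e-05), with no overlap between the groups. Psph measured 30.6 and 31.8 CPM in WT and 36.6 and 31.7 CPM in SDHA-KO libraries before stimulation, and 169 and 145 CPM in WT and 79.8 and 70.2 CPM in SDHA-KO libraries after it. Psph, the last enzyme of the chain, gave -1.07 ± 0.10 (SE, adjusted p = 1.14e-05), the lowest log2 fold change among the 8, with both SDHA-KO libraries below both WT libraries.

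Among the mitochondrial enzymes Mthfd1l measured 33.2 and 33.3 CPM in WT and 39.2 and 40.2 CPM in SDHA-KO libraries before stimulation, and 174 and 164 CPM in WT and 101 and 87.2 CPM in SDHA-KO libraries after it. Its log2 fold change between stimulated genotypes was -0.85 ± 0.080 (SE, adjusted p = 1.61e-05), and the 2 stimulated SDHA-KO libraries lay below both stimulated WT libraries. Shmt2 measured 8.02 and 8.69 CPM in WT and 13.9 and 10.5 CPM in SDHA-KO libraries before stimulation, and 78.0 and 75.6 CPM in WT and 66.5 and 67.8 CPM in SDHA-KO libraries after it. The SDHA-KO values were the lower ones, but Shmt2 was not called at -0.19 ± 0.088 (SE, adjusted p = 0.0968). Mthfd2 measured 33.2 and 33.9 CPM in WT and 42.6 and 34.6 CPM in SDHA-KO libraries before stimulation, and 147 and 129 CPM in WT and 120.4 and 123 CPM in SDHA-KO libraries after it. Mthfd2, the dehydrogenase upstream of Mthfd1l, was not called either, at -0.18 ± 0.091 (SE, adjusted p = 0.131), and its WT libraries were further apart than its SDHA-KO libraries.

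In the cytosol Mthfd1 measured 13.1 and 14.1 CPM in WT and 17.6 and 14.0 CPM in SDHA-KO libraries before stimulation, and 34.2 and 31.4 CPM in WT and 54.5 and 58.6 CPM in SDHA-KO libraries after it. Mthfd1 was called higher at 0.79 ± 0.10 (SE, adjusted p = 9.81e-05), and the groups did not overlap. Shmt1 measured 3.05 and 3.45 CPM in WT and 4.13 and 3.77 CPM in SDHA-KO libraries before stimulation, and 33.5 and 31.3 CPM in WT and 32.0 and 36.1 CPM in SDHA-KO libraries after it. The stimulated groups of Shmt1 overlapped, and its log2 fold change was 0.073 ± 0.094 (SE, adjusted p = 0.564). Leaving out each library in turn left 5 enzymes called in every case.

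The promoters of the 4 enzymes called lower and of Mthfd1, the enzyme called higher, are given so that a reader can set those that moved together side by side. Each is the RefSeq window from 250 bases before to 50 bases after a start site on GRCm38.p6, printed 5′ to 3′ on the strand of the gene, with capitals for CCAAT boxes (CCAAT, or ATTGG where the motif is on the opposite strand). Phgdh is from chr3:98339920-98340219, Psat1 from chr19:15925010-15925309 (the table also gives a second Psat1 window), Psph from chr5:129787204-129787503, Mthfd1l from chr10:3972825-3973124 and Mthfd1 from chr12:76254982-76255281.
Phgdh: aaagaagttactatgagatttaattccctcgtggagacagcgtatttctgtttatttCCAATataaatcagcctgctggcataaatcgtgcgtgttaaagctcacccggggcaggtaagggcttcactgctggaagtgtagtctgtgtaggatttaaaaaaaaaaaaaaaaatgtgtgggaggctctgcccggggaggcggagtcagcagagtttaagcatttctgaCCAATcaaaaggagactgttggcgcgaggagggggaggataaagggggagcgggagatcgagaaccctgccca
Psat1: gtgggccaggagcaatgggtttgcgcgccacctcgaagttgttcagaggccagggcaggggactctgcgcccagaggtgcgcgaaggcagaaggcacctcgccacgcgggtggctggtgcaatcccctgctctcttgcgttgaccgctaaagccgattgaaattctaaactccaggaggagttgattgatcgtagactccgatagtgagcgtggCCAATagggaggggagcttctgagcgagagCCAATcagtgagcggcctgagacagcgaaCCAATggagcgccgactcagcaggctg
Psph: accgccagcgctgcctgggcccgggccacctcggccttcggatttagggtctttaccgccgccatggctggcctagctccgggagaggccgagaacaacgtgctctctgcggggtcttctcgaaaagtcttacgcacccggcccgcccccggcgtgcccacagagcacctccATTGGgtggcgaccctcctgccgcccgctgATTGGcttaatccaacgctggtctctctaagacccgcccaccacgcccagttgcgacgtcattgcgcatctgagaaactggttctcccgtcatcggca
Mthfd1l: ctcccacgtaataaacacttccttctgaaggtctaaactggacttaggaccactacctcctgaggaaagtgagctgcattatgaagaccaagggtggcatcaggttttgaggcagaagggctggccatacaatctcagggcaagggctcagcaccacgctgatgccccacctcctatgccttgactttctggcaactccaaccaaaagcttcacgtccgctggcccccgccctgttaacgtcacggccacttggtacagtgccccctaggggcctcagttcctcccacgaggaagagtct
Mthfd1: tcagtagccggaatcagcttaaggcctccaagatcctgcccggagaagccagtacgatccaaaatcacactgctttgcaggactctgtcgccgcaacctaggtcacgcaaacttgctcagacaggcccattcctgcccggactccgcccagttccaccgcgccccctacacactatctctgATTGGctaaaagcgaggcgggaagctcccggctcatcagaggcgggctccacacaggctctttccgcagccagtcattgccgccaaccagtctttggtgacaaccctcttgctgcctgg
CCAAT occurred 2 times in the windows of Phgdh and Psph, 3 times in this Psat1 window, 1 time in Mthfd1 and not in Mthfd1l. On either strand it occurred in 37.4% of the 32851 promoters of the table, and 11.7% held 2 or more. Of the enzymes not called in CD4 cells, Mthfd2 had 3 and Shmt1 had 1. The ATF4 element TGATGNAA (3.97% of promoters) and the E-box CACGTG (7.15%), searched on both strands, were found in none of the 9 windows of the 8 genes.

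In stimulated CD8 cells the cytosolic enzymes were higher in SDHA-KO, Psph and Mthfd1l were lower, and Phgdh and Psat1 were not called. In all 6 of 8 were called, 4 higher and 2 lower, where 50.4% of all genes were called, 26.8% higher and 23.5% lower. The median log2 fold change of the 8 was 0.11, against -0.0096 over all genes tested. Serine synthesis genes summed to 545 ± 25.6 CPM in WT and 478 ± 16.9 CPM in SDHA-KO, and the cytosolic pair to 72.0 ± 0.441 and 140.5 ± 2.82 CPM.

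Shmt1 measured 4.0 and 3.79 CPM in WT and 7.20 and 6.51 CPM in SDHA-KO libraries before stimulation, and 34.3 and 34.2 CPM in WT and 66.2 and 71.5 CPM in SDHA-KO libraries after it. The cytosolic serine hydroxymethyltransferase reached 1.0 ± 0.081 (SE, adjusted p = 4.08e-06), the highest log2 fold change among the 8, with both stimulated SDHA-KO libraries above both WT libraries. Mthfd1 measured 14.6 and 17.0 CPM in WT and 14.7 and 20.1 CPM in SDHA-KO libraries before stimulation, and 38.0 and 37.4 CPM in WT and 72.3 and 71.0 CPM in SDHA-KO libraries after it. Mthfd1 gave 0.93 ± 0.093 (SE, adjusted p = 1.52e-05), again with no overlap. Psph measured 38.8 and 39.0 CPM in WT and 44.4 and 39.4 CPM in SDHA-KO libraries before stimulation, and 141 and 130.3 CPM in WT and 90.7 and 82.6 CPM in SDHA-KO libraries after it. Psph fell, at -0.65 ± 0.077 (SE, adjusted p = 4.83e-05), as the only serine synthesis enzyme called in this class.

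Of the mitochondrial enzymes, Mthfd1l measured 50.0 and 47.1 CPM in WT and 50.4 and 47.4 CPM in SDHA-KO libraries before stimulation, and 169 and 161 CPM in WT and 109.6 and 100.0 CPM in SDHA-KO libraries after it. Mthfd1l fell, at -0.65 ± 0.072 (SE, adjusted p = 2.79e-05), with the groups apart. Shmt2 measured 17.4 and 14.3 CPM in WT and 17.7 and 22.8 CPM in SDHA-KO libraries before stimulation, and 85.8 and 86.0 CPM in WT and 110.3 and 98.0 CPM in SDHA-KO libraries after it. Mthfd2 measured 18.6 and 23.0 CPM in WT and 18.9 and 25.8 CPM in SDHA-KO libraries before stimulation, and 120.1 and 119 CPM in WT and 146 and 138 CPM in SDHA-KO libraries after it. Both were higher in the stimulated SDHA-KO libraries without overlap, by 0.28 ± 0.089 (SE, adjusted p = 0.0217) for Shmt2 and 0.24 ± 0.087 (SE, adjusted p = 0.0354) for Mthfd2. Neither call held in every fit with a single library left out. The Shmt2 call was lost without WT replicate 1 (0.26, adjusted p = 0.120), WT replicate 2 (adjusted p = 0.113) or SDHA-KO replicate 1 (adjusted p = 0.177), and that of Mthfd2 without any of the 4 stimulated libraries (adjusted p from 0.0543 to 0.158).

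Phgdh measured 59.7 and 61.1 CPM in WT and 65.7 and 74.9 CPM in SDHA-KO libraries before stimulation, and 332 and 306 CPM in WT and 306 and 301 CPM in SDHA-KO libraries after it. Psat1 measured 3.43 and 8.25 CPM in WT and 10.8 and 7.99 CPM in SDHA-KO libraries before stimulation, and 89.5 and 90.8 CPM in WT and 93.7 and 82.5 CPM in SDHA-KO libraries after it. Both overlapped between the stimulated genotypes, with log2 fold changes of -0.072 ± 0.073 (SE, adjusted p = 0.433) for Phgdh and -0.032 ± 0.12 (SE, adjusted p = 0.838) for Psat1. The drop seen in CD4 cells was thus not called over all cells of this class. In it, 59.1% and 56.1% of stimulated SDHA-KO cells held a Trdc UMI, against 3.67% and 4.92% of WT cells. Over cells without a Trdc UMI Phgdh was called lower and Psat1 was not called, as given below.

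**Figure D2:**
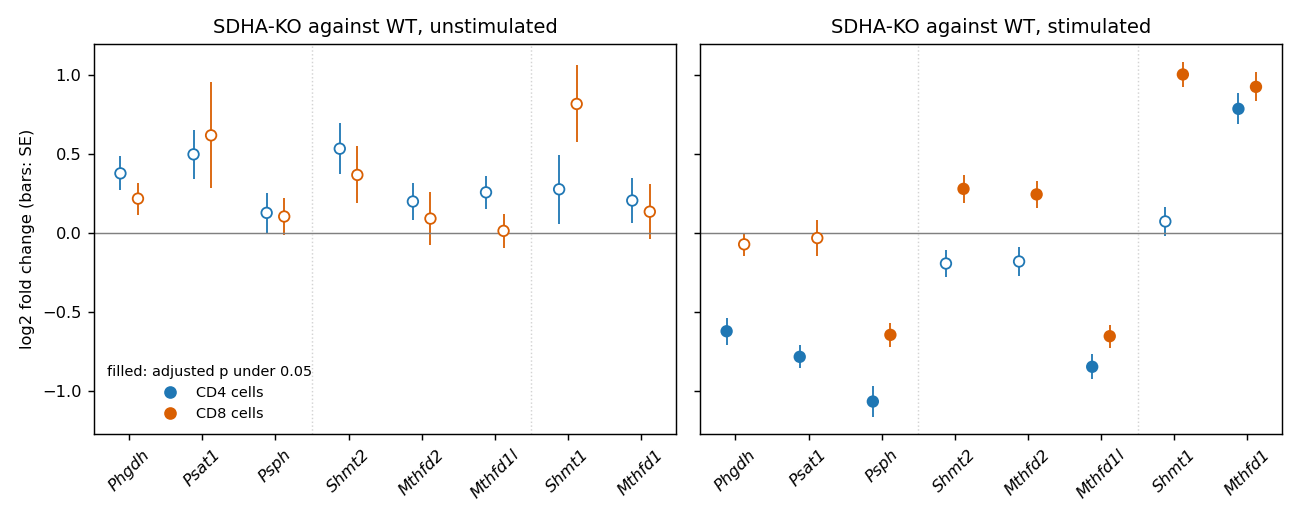
Log2 fold change of SDHA-KO against WT for the 8 enzymes, unstimulated and stimulated, in CD4 and CD8 cells, in blue for CD4 and orange for CD8, with bars of 1 SE from edgeR and filled points where the adjusted p is under 0.05. Stimulated CD4 values run from -1.07 for Psph to 0.79 for Mthfd1, and stimulated CD8 values from -0.65 for Mthfd1l to 1.0 for Shmt1.

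The SDHA-KO effect was compared directly between states and between classes. In CD4 cells it differed between stimulated and unstimulated cells for 6 of 8 enzymes (21.4% of all genes called, 10.9% higher and 10.5% lower). The difference (stimulated minus unstimulated, log2) was -1.28 ± 0.17 (SE, adjusted p = 0.000573) for Psat1, -1.20 ± 0.16 (SE, adjusted p = 0.000554) for Psph and -1.11 ± 0.13 (SE, adjusted p = 0.000300) for Mthfd1l. It was -1.0 ± 0.14 (SE, adjusted p = 0.000739) for Phgdh and -0.73 ± 0.18 (SE, adjusted p = 0.0170) for Shmt2, and on the positive side 0.58 ± 0.18 (SE, adjusted p = 0.0372) for Mthfd1. Without unstimulated WT replicate 1 or 2, the count was 4, since Shmt2 and Mthfd1 were no longer called. Shmt2 was also lost without unstimulated SDHA-KO replicate 1 or stimulated WT replicate 1, and Mthfd1 without replicate 2 of any of the other 3 groups. Mthfd2 was called without unstimulated SDHA-KO replicate 2 (adjusted p = 0.0425). In CD8 cells 3 of 8 differed (23.8% of all genes, 13.5% higher and 10.2% lower), with -0.75 ± 0.14 (SE, adjusted p = 0.00380) for Psph, -0.67 ± 0.13 (SE, adjusted p = 0.00411) for Mthfd1l and 0.79 ± 0.20 (SE, adjusted p = 0.0148) for Mthfd1. The CD8 call of Mthfd1 was lost without unstimulated WT replicate 2 (adjusted p = 0.115) or unstimulated SDHA-KO replicate 1 (adjusted p = 0.0633), and Psat1 was called without that WT library (adjusted p = 0.0361).

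Between classes of stimulated cells, the SDHA-KO effect differed for 6 of 8 enzymes in a fit that kept each library as a block (22.4% of all genes called, 11.9% lower). Every one of the 6 differences (CD4 minus CD8, log2) was negative. Shmt1 gave -0.92 ± 0.083 (SE, adjusted p = 0.000663), Psat1 -0.74 ± 0.079 (SE, adjusted p = 0.00119) and Phgdh -0.54 ± 0.062 (SE, adjusted p = 0.00141). Shmt2 gave -0.46 ± 0.082 (SE, adjusted p = 0.00676), Mthfd2 -0.41 ± 0.082 (SE, adjusted p = 0.0104) and Psph -0.40 ± 0.069 (SE, adjusted p = 0.00568). The Mthfd2 difference was not called without stimulated WT replicate 1 (adjusted p = 0.0754). With cells thinned to 5000 UMIs each, 1 of 8 was called (1414 of 11791 genes in all), and over cells that held no Mki67 UMI, 0 of 8 (607 of 10535, or 5.76%). Unstimulated, 0 of 8 differed between classes (0.551% of all genes), 0 had an unadjusted p under 0.05, and DESeq2 called 0.

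The classes were also compared in WT cells alone. Unstimulated, 5 of 8 enzymes were called between CD4 and CD8 cells (22.3% of all genes, 10.8% higher and 11.5% lower in CD4), with Mthfd2 higher in CD4 cells at 0.65 ± 0.15 (SE, adjusted p = 0.000915). Shmt2 at -0.94 ± 0.21 (SE, adjusted p = 0.00119), Mthfd1l at -0.57 ± 0.10 (SE, adjusted p = 8.31e-05), Phgdh at -0.53 ± 0.11 (SE, adjusted p = 0.000245) and Psph at -0.35 ± 0.11 (SE, adjusted p = 0.0208) were lower in CD4 cells. Stimulated, 2 of 8 were called (23.5% of all genes, 11.0% lower in CD4), Mthfd1 at -0.26 ± 0.062 (SE, adjusted p = 0.0200) and Shmt2 at -0.22 ± 0.058 (SE, adjusted p = 0.0294). Both counts were lower when either WT library of the state was left out. DESeq2 called 0 in both states, and the share of all genes it called there is not given here.

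The deposited Subtype annotation, which the authors made by clustering the same cells, was used to ask whether the CD4 pattern was found within subsets. Of the stimulated Subtypes, 5 of the CD4 class and 2 of the CD8 class held at least 50 cells in each of their 4 libraries, and the names are the authors'. The others were not tested, among them the largest SDHA-KO Subtype of each class. These were CD4 Tem5, with 369 and 375 SDHA-KO cells against 47 and 63 WT cells, and CD8 Tem1, with 136 and 111 against 16 and 16. Enzymes called numbered 5 of 8 in CD4 Tcm2 (12.9% of all genes), 6 in Tcm4 (15.1%), 6 in Tem1 (27.8%), 7 in Tem2 (24.0%) and 7 in Tem3 (23.0%). Phgdh, Psat1, Psph and Mthfd1l were called lower in all 5 tested. The count in Tcm2 was 3 without stimulated WT replicate 1 or without stimulated SDHA-KO replicate 1.

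Psph ranged from -0.93 in Tem1 to -1.56 in Tem3, where it stood at 279.9 and 256 CPM in the WT libraries and 96.3 and 86.2 CPM in the SDHA-KO libraries. Psat1 ranged from -0.96 in Tem1 to -1.17 in Tem3, with 164 and 163 CPM in the WT libraries and 68.0 and 75.5 CPM in the SDHA-KO libraries in Tem3. Neither gene overlapped between genotypes there. Phgdh in WT cells was at its highest in Tem3, with 553 and 540.4 CPM in the WT libraries and 320.5 and 305 CPM in the SDHA-KO libraries, and was lower in Tcm4, with 209 and 199 CPM in the WT libraries and 126 and 133 CPM in the SDHA-KO libraries. Mthfd1l ran in the other order, with 459.7 and 441 CPM in the WT libraries and 255 and 244 CPM in the SDHA-KO libraries in Tcm4 and 97.1 and 89.0 CPM in the WT libraries and 61.5 and 55.7 CPM in the SDHA-KO libraries in Tem3. Genotypes were apart for both genes in both Subtypes, which is description without the share over all genes.

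Mthfd2, not called over the whole CD4 class, was called lower in 4 of 5 Subtypes, at -1.01 in Tcm2, -0.96 in Tcm4, -0.54 in Tem2 and -0.69 in Tem3. In Tem1 it gave 0.22 and was not called. Shmt2 was called lower in 3 of 5, at -0.55 in Tem1, -0.33 in Tem2 and -0.39 in Tem3. Mthfd1 was called higher in 4 of 5, from 0.42 in Tem3 to 1.02 in Tcm4, where it stood at 53.7 and 47.5 CPM in the WT libraries and 106 and 100.1 CPM in the SDHA-KO libraries. Shmt1 was called in 0 of the 5 by edgeR, 0 with an unadjusted p under 0.05, with values from -0.12 to 0.071.

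In the CD8 class, Tem2 had 4 of 8 called (32.6% of all genes), with Shmt1 at 0.98 and Mthfd1 at 0.75 higher, and Psph at -0.87 and Phgdh at -0.30 lower. Phgdh there stood at 567 and 479 CPM in the WT libraries and 428 and 427 CPM in the SDHA-KO libraries. CD8 Tcm4 had 1 of 8 called (5.63% of all genes), Psph at -0.81, a count that was 0 without either stimulated WT library, 2 without SDHA-KO replicate 1 and 3 without SDHA-KO replicate 2. In the 9 unstimulated Subtypes tested, 4 to 8 of the 8 enzymes had enough counts, and edgeR called 0 of the 36 tests in CD4 and 0 of the 18 in CD8 Subtypes, of which 4 and 1 had an unadjusted p under 0.05. The share of all genes called there was 2.36% in CD4 Naive1, 2.91% in Naive2, 1.56% in Naive3, 2.39% in Naive4, 7.83% in Tem1 and 0.706% in Treg, and 2.41% in CD8 Naive1, 2.2% in Naive2 and 0.496% in Tcm1. Phgdh was on the positive side in 6 of 6 unstimulated CD4 Subtypes, between 0.26 and 0.46, and Mthfd1l in 6 of 6, between 0.015 and 0.76, without a call.

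**Figure D3:**
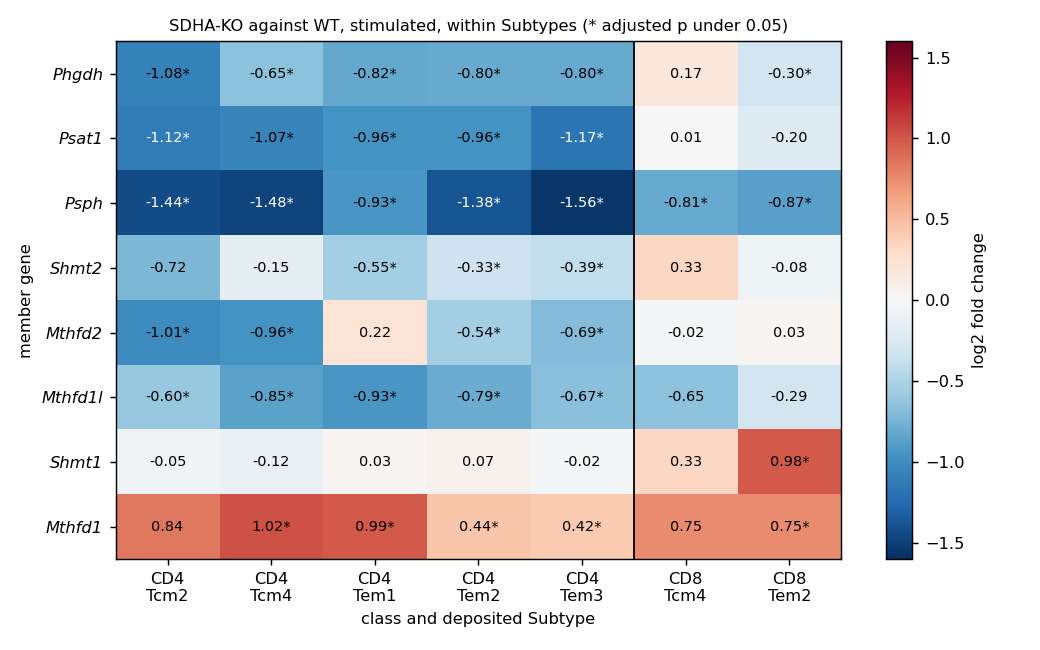
Log2 fold change of SDHA-KO against WT in each stimulated Subtype with enough cells (columns) for the 8 enzymes (rows), as numbers and colours, with an asterisk where the adjusted p is under 0.05. Psph is negative in all 7 Subtypes, from -0.81 in CD8 Tcm4 to -1.56 in CD4 Tem3.

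Since mitochondrial share, γδ markers and depth moved with genotype, the stimulated comparison was repeated over chosen cells. Cells with under 10% mitochondrial UMIs were 39.1% and 41.0% of stimulated WT CD4 cells and 86.9% and 90.0% of SDHA-KO CD4 cells. In WT they held 18947498 of 25283357 and 22212084 of 29087409 UMIs, so the WT cells kept were the deeper ones. In SDHA-KO they held 27058360 of 28163818 and 33106458 of 34087903 UMIs. Over them the log2 fold changes in CD4 cells were -0.97 for Phgdh, -1.11 for Psat1, -1.37 for Psph and -0.63 for Mthfd1l, and Shmt2 (-0.53, adjusted p = 0.000969) and Mthfd2 (-0.46, adjusted p = 0.00279) were called lower too. In CD8 cells the same choice kept 24.3% and 29.3% of WT and 64.1% and 65.0% of SDHA-KO cells. Phgdh (-0.47, adjusted p = 0.00119) and Psat1 (-0.42, adjusted p = 0.0182) were then called lower, while Shmt2 and Mthfd2 moved to -0.13 and -0.068 and were not called.

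Leaving out cells that held a Trdc UMI, a choice made after seeing the data, 40.9% and 43.9% of stimulated SDHA-KO CD8 cells were left and 95.1% and 96.3% of WT cells. Phgdh was then called lower in CD8 cells (-0.29, adjusted p = 0.00885), and Shmt1 moved from 1.0 to 0.59 and remained called. Psph (-0.62), Mthfd1l (-0.80) and Mthfd1 (0.73) were called as before. Assigning class by the UMIs of Cd4, Cd8a, Cd8b1 and Trdc gave -0.30 for Phgdh and 0.56 for Shmt1 in CD8 cells. Psat1 was not called in CD8 cells by this class or over cells without a Trdc UMI. The CD4 values without Trdc cells ran from -1.06 for Psph to 0.80 for Mthfd1.

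Cells without an Mki67 UMI, a proliferation gene, were 19.2% and 19.9% of stimulated WT and 39.2% and 44.9% of SDHA-KO CD4 cells. In WT they held 2464587 of 25283357 and 3112814 of 29087409 UMIs. In SDHA-KO they held 8713878 of 28163818 and 11388858 of 34087903 UMIs. The cells kept were thus the shallower ones in both genotypes, and the part of depth in this choice was not tested. Over them Psat1 was no longer called in CD4 cells (-0.21, adjusted p = 0.159) and Shmt1 was called higher (0.39, adjusted p = 0.0462). In CD8 cells, where 14.3% and 16.2% of WT and 17.2% and 23.7% of SDHA-KO cells were left, the calls of Shmt1 (0.15, adjusted p = 0.584) and Psph (-0.40, adjusted p = 0.0546) were lost. With every cell thinned to 5000 UMIs, Shmt1 was called higher in CD4 cells at 0.34. Scaled by the number of cells, the median gene moved to -0.19 in CD4 and 0.45 in CD8 cells. On that scale Phgdh and Psat1 were called higher in SDHA-KO CD8 cells, at 0.39 and 0.43, both below the median gene. Psph and Mthfd1l, at -0.19 and -0.20, were not called.

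**Figure D4:**
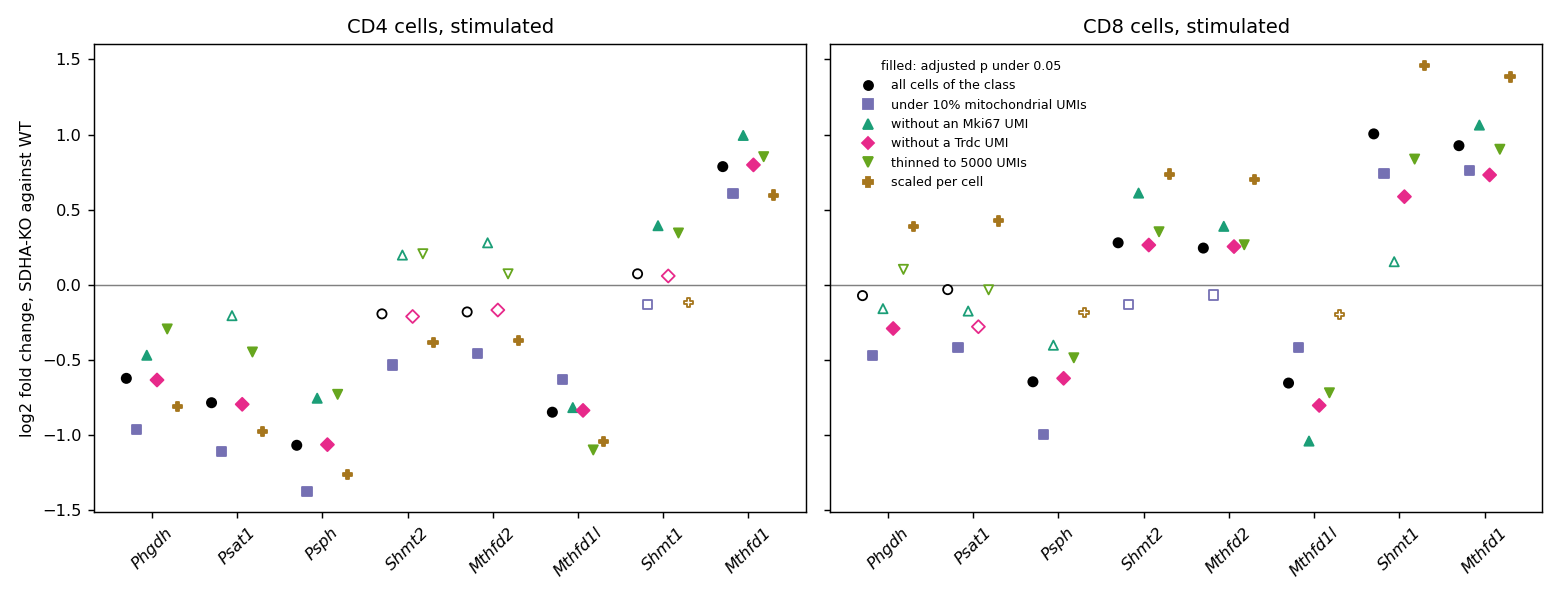
Log2 fold change of SDHA-KO against WT in stimulated CD4 and CD8 cells over all cells (black) and over each choice of cells or scale, with 1 marker shape per choice and filled markers where the adjusted p is under 0.05. In CD8 cells Phgdh runs from -0.47 over cells under 10% mitochondrial UMIs to 0.39 scaled by the number of cells.

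Genes that connect to these enzymes were read in the same fits, from 7 lists of 45 genes in all written from general knowledge. In stimulated CD4 cells 12 were higher and 8 lower in SDHA-KO of 45 tested, beside the 22.7% higher and 20.5% lower of all genes, with a median log2 fold change of 0.12 against -0.00094 over all genes. Of 7 purine ring synthesis genes, 4 were higher and 0 lower, with Prps1, which makes the ribose phosphate that purines are built on, at 45.3 and 48.6 CPM in WT and 75.1 and 77.9 CPM in SDHA-KO libraries (log2 fold change 0.70 ± 0.074 SE, adjusted p = 3.36e-05) and Atic, the last enzyme of the ring, at 0.39 (adjusted p = 0.00257). Of 14 folate cycle and transport genes, 4 were higher and 2 lower. Tyms, the thymidylate synthase, stood at 90.7 and 87.9 CPM in WT and 139.8 and 144 CPM in SDHA-KO libraries (log2 fold change 0.67 ± 0.072 SE, adjusted p = 3.69e-05), and Mthfs, which recycles a formylated folate, gave 0.33 (adjusted p = 0.0457). Of 7 serine carriers, 2 were higher and 3 lower, the last including Slc38a2 at 132 and 119.6 CPM in WT and 72.5 and 60.8 CPM in SDHA-KO libraries (log2 fold change -0.92 ± 0.093 SE, adjusted p = 2.65e-05) and Slc1a5 at -0.76 (adjusted p = 1.93e-05), both plasma membrane transporters of small neutral amino acids.

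Of 4 glycine cleavage genes 1 was called, Gcsh, which carries the intermediate of that system, at 0.61 (adjusted p = 0.00234). Of 6 methionine cycle genes 1 was higher, Mat2a, which makes S-adenosylmethionine, at 0.22 (adjusted p = 0.0340), and 1 was lower. Of 5 other users of serine 1 was lower, Sptlc1 of sphingolipid synthesis, at -0.46 (adjusted p = 0.00356). Atf4, a transcription factor known to drive serine synthesis genes, fell in CD4 cells, from 144 and 129.7 CPM in WT to 109 and 98.2 CPM in SDHA-KO libraries (log2 fold change -0.40 ± 0.085 SE, adjusted p = 0.00287), and Myc, which drives growth genes, was not called at 0.26 (adjusted p = 0.0535). In unstimulated cells edgeR called 0 of 45 genes in CD4 and 0 of 43 in CD8 cells, with 8 and 3 at an unadjusted p under 0.05, and DESeq2 called 1 in each.

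In stimulated CD8 cells 20 were higher and 7 lower of 43 tested, beside the 26.8% higher and 23.5% lower of all genes, with a median of 0.35 against -0.0096 over all genes. All 7 purine genes were higher, with Gart, which carries out several steps of the ring, at 74.5 and 67.3 CPM in WT and 119 and 126 CPM in SDHA-KO libraries (log2 fold change 0.78 ± 0.086 SE, adjusted p = 2.78e-05) and Atic at 0.76 (adjusted p = 5.97e-05). Of 13 folate genes 7 were higher and 2 lower, with Tyms at 0.72 (adjusted p = 4.95e-05) and Slc19a1, the reduced folate carrier, at 0.93 (adjusted p = 1.05e-05). Gcsh gave 1.03 (adjusted p = 5.61e-06) as 1 of 2 glycine cleavage genes called higher of 3, and Mat2a 0.88 (adjusted p = 8.35e-06) as 1 of 2 methionine cycle genes higher of 6, with 1 lower. Of 7 serine carriers 1 was higher, Sfxn1, the mitochondrial serine carrier, at 92.5 and 92.3 CPM in WT and 137 and 135 CPM in SDHA-KO libraries (log2 fold change 0.55 ± 0.072 SE, adjusted p = 9.03e-05), and 2 were lower, Slc38a2 among them at -0.69 (adjusted p = 1.70e-05). Sptlc1 was 1 of 2 lower of 5 serine users, at -0.34 (adjusted p = 0.00650). Atf4 was not called in CD8 cells at 0.11 (adjusted p = 0.209), and Myc was called higher at 0.49 (adjusted p = 0.00206). On stimulation of WT cells all 7 purine genes were called higher in both classes, and of all lists 30 of 45 were higher and 11 lower in CD4 cells (36.2% of all genes higher and 66.3% called), and 27 of 43 higher and 8 lower in CD8 cells (35.5% higher and 65.7% called).

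**Figure D5:**
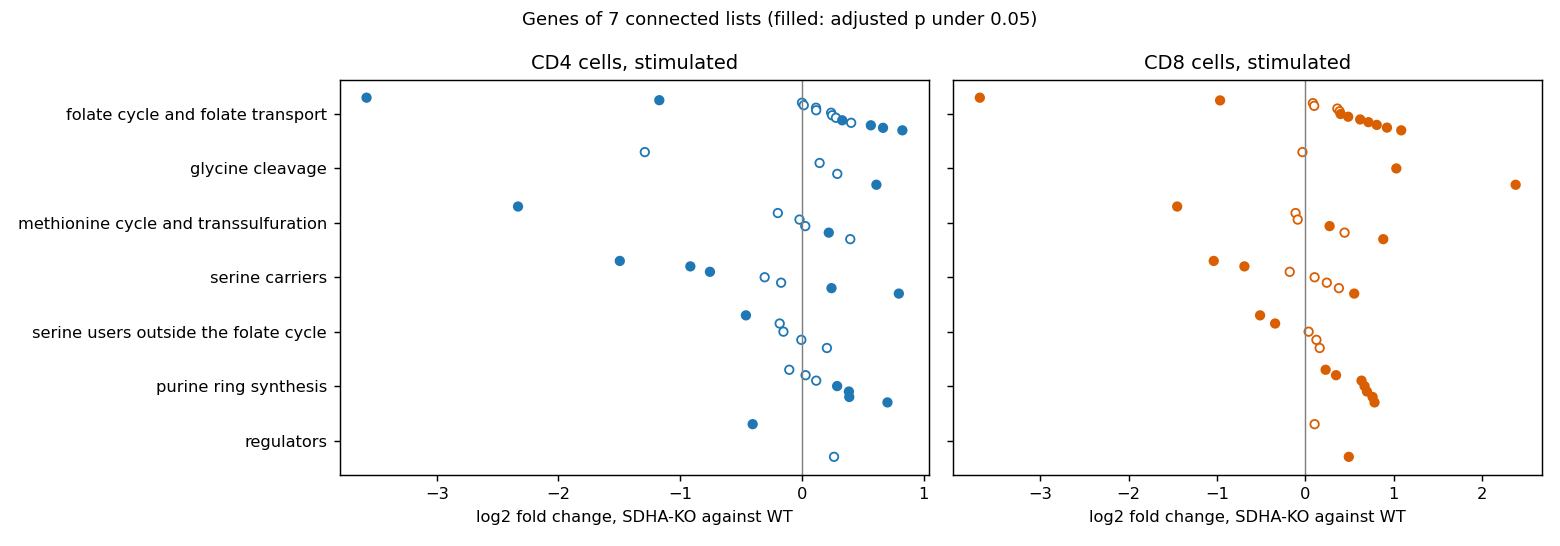
Log2 fold change of SDHA-KO against WT in stimulated CD4 (left) and CD8 cells (right) for each gene of the 7 connected lists, with 1 point per gene and filled points where the adjusted p is under 0.05. All 7 purine genes are higher in CD8 cells and 4 of 7 in CD4 cells.

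The genes whose level was most like that of each branch were ranked among 5720 genes by Pearson's r of log2 CPM over the 16 sums, which come from 8 libraries and span unstimulated and stimulated cells. For serine synthesis they were Eif4ebp1 (0.994), Hist1h2bj (0.994), Tfrc (0.993), Hsd17b12 (0.992) and Hk2 (0.991). Eif4ebp1, a translation repressor, stood at a mean of 209 CPM in stimulated WT and 62.6 CPM in stimulated SDHA-KO CD4 cells. For the mitochondrial enzymes they were Hsd17b12 (0.996), Pgam1 (0.996), Tfrc (0.996), Tpi1 (0.994) and Mms22l (0.993), of which Pgam1 and Tpi1 are glycolytic. Pgam1 stood at 568 and 339 CPM in the same groups. For the cytosolic pair they were Mydgf (0.996), Rangap1 (0.994), Rsl1d1 (0.994), Gspt1 (0.994) and Sfxn1 (0.993). Mydgf stood at 95.9 CPM in stimulated WT and 122 CPM in stimulated SDHA-KO CD4 cells. The mitochondrial serine carrier Sfxn1, in the last of these groups, was at 90.1 and 107 CPM.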

How the data were processed

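Processed files of 8 single-cell RNA-seq libraries (10x 3′ HT v3.1) were used. The authors ran Cell Ranger and bcl2fastq against mm10 per the submitters' processing notes, and Seurat 4.2.0 (versions of the former are not given in the sources used here). They kept cells under 6000 detected genes if unstimulated and 8000 if stimulated, and labelled CD class and Subtype from clusters. The deposited matrix gives, for every cell, the UMI count of each gene. The deposited annotation of cells holds the percent of mitochondrial UMIs, a log10 ratio of Cd4 to Cd8a UMIs, class, Subtype and library of each cell. UMI totals differed between the 2 tables in 0 of 12846 cells.

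Counts were summed per library and CD class (3640136 to 34087903 UMIs) and per Subtype. They were fitted with edgeR 4.0.16 (R 4.3.3) by the quasi-likelihood test after filterByExpr (minimum count 10) and TMM, over 4 groups with 4 residual degrees of freedom, or by state with the library as a block for CD4 against CD8 (2 residual degrees of freedom). In CD4 cells 14264 genes were tested and in CD8 cells 13095, all 8 enzymes among them. Adjusted p-values are Benjamini-Hochberg over all genes tested. Subtypes were fitted where each of the 4 libraries of a state held at least 50 cells. Alternatives were DESeq2 1.42.0, RLE or no composition scaling, no low-count filter, mitochondrial genes left out, only the libraries compared, the replicate block, UMIs per cell, cell choices (mitochondrial UMIs under 10%, no Mki67 UMI, no Trdc UMI, class by UMIs), cells thinned to 5000 UMIs (89.4 to 99.8% of cells per sum kept) and each library left out. The fits without Trdc cells and the Subtype alternatives were added after seeing the data. The method was tested on simulated data. The enzymes and connected lists were chosen with earlier results of these data known. Named connected genes were the 2 of each list with the largest absolute log2 fold change among those called in stimulated SDHA-KO against WT, per class, at a mean of at least 20 CPM, with Atf4, Myc and Sdha always. Start sites and promoters were taken from RefSeq (GRCm38.p6) and gene positions from GENCODE vM21. Doublets were not called again. Figures were drawn with matplotlib 3.10.9.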

Additional observations from a re-analysis of the deposited data

Results flagged for a closer look

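The SDHA-KO effect on 6 enzymes differed between stimulated and unstimulated CD4 cells by a test of the difference itself (edgeR, adjusted p from 0.000300 to 0.0372). The log2 difference was -1.28 for Psat1, -1.20 for Psph and -1.0 for Phgdh in the serine branch. It was -1.11 for Mthfd1l and -0.73 for Shmt2 in mitochondria, and 0.58 for cytosolic Mthfd1. The calls of Shmt2 and Mthfd1 did not hold in every alternative fit, while those of Psat1, Psph, Phgdh and Mthfd1l did.

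The same difference was past the threshold for 3 enzymes in CD8 cells, at -0.75 for Psph, -0.67 for Mthfd1l and 0.79 for Mthfd1. The calls of Psph and Mthfd1 did not hold in every alternative fit, while that of Mthfd1l did.

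Between stimulated CD4 and CD8 cells the SDHA-KO effect differed for 6 enzymes by the interaction term. The log2 difference, CD4 minus CD8, was -0.92 for Shmt1, -0.74 for Psat1 and -0.54 for Phgdh. It was -0.46 for Shmt2, -0.41 for Mthfd2 and -0.40 for Psph. The γδ markers moved with genotype in the CD8 class as given in the report, and over cells without a Trdc UMI the count was 6 of 8, with Shmt1 in CD8 cells at 0.59 in place of 1.0. Over cells without an Mki67 UMI it was 0 of 8, with the Shmt1 difference at 0.15, and with cells thinned to 5000 UMIs 1 of 8.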

How the results depend on the processing

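Over all alternatives, 254 of 268 counts of enzymes called per class comparison stayed within 1.5 times the reported count, as did 88 of 96 counts within Subtypes. These tallies include comparisons with none or all 8 enzymes called, and every unstimulated Subtype tested, where none was called. They therefore do not measure how firm the remaining comparisons are. Of the log2 fold changes of single genes (SDHA-KO against WT for the genes named in the text, and the called values of the other comparisons), 2067 kept direction and side of the threshold, 99 lost and 33 gained a call, and 24 changed sign. Values of the other comparisons that were not called are not in these counts. The cause of a change was not tested.

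The share of all genes called also moved between settings. For stimulated SDHA-KO against WT CD4 cells it was 43.2% in the main fit and 29.7% with DESeq2. The counts below therefore do not separate a change in the enzymes from a change in genes at large. Between unstimulated genotypes, scaling by the number of cells gave 5 enzymes called in CD4 and 4 in CD8 cells. Between stimulated WT CD4 and CD8 cells the count was 0 with DESeq2, 4 over cells under 10% mitochondrial UMIs, 0 over cells without an Mki67 UMI, 1 with cells thinned to 5000 UMIs and 1 over cells without a Trdc UMI, and 0 to 3 with 1 library left out. Between unstimulated WT CD4 and CD8 cells it was 0 with DESeq2 and 3 to 5 with 1 library left out. The SDHA-KO effect, CD4 minus CD8, was called for 0 enzymes over cells without an Mki67 UMI and 1 with cells thinned. Without composition normalization 2 enzymes were called in unstimulated CD4 Naive2 and 0 in CD8 Tcm4. With 1 library left out, 3 to 5 were called in CD4 Tcm2 and 0 to 3 in CD8 Tcm4.

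Signs turned as follows. In stimulated CD4 cells without an Mki67 UMI the log2 fold change was -0.030 for Tyms, 0.28 for Mthfd2 and 0.20 for Shmt2, and with thinning 0.073 for Mthfd2 and 0.21 for Shmt2. Shmt1 there was -0.13 under 10% mitochondrial UMIs, -0.12 scaled by cells and -0.0025 to 0.17 with 1 library left out. In stimulated CD8 cells, Phgdh was 0.10 with thinning and 0.39 scaled by cells, as were Psat1 at 0.43 and Sptlc1 at 0.12. Under 10% mitochondrial UMIs, Shmt2 was -0.13, Mthfd2 -0.068 and Atf4 -0.24. Psat1 ran from -0.14 to 0.040 with 1 library left out. In unstimulated CD8 cells Mthfd1 was -0.017 with thinning and, with 1 library left out, -0.092 to 0.35, Mthfd2 -0.13 to 0.31 and Mthfd1l -0.024 to 0.076. Over cells without an Mki67 UMI, Mthfd1 between stimulated WT CD4 and CD8 cells was 0.11, and the CD4 minus CD8 difference of Shmt1 was 0.15.

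Same-numbered libraries did not deviate together (correlations of deviations from group means from -0.25 to 0.074), so the numbers were not taken to pair them. With the replicate number as a block, 5 enzymes were called in stimulated CD4 and 6 in stimulated CD8 cells, as without it, and all genes called went from 6160 to 5904 and from 6594 to 6346. Depth limits the unstimulated sums, which held down to 12 UMIs of an enzyme. With 2 libraries a group, only spread between libraries enters the error.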

Other observations

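Some connected genes of low level had larger log2 fold changes between stimulated genotypes than any of the 8 enzymes, and were chosen here after their values were seen. Aldh1l2, a mitochondrial enzyme that oxidises formyl-folate, stood at 4.71 and 4.58 CPM in WT against 0.358 and 0.406 CPM in SDHA-KO CD4 cells, a log2 fold change of -3.58 ± 0.34 (SE, adjusted p = 2.89e-05). In CD8 cells it stood at 5.06 and 4.09 CPM in WT against 0.376 and 0.309 CPM in SDHA-KO CD8 cells, a log2 fold change of -3.69 ± 0.44 (SE, adjusted p = 4.76e-05). Cth, which makes cysteine by transsulfuration from serine-derived cystathionine, stood at 18.9 and 14.2 CPM in WT against 2.77 and 3.76 CPM in SDHA-KO CD4 cells, a log2 fold change of -2.33 ± 0.21 (SE, adjusted p = 3.17e-05), and its log2 fold change in CD8 cells was -1.45. Slc1a4, a carrier of alanine, serine and cysteine, stood at 9.39 and 8.63 CPM in WT against 3.64 and 2.76 CPM in SDHA-KO CD4 cells, a log2 fold change of -1.50 ± 0.21 (SE, adjusted p = 0.000231).

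Other genes of the lists were higher. Fpgs, which adds glutamates that hold folate in the cell, stood at 10.6 and 11.4 CPM in WT against 23.8 and 22.9 CPM in SDHA-KO CD8 cells, a log2 fold change of 1.09 ± 0.10 (SE, adjusted p = 9.48e-06). Ggh, which removes them, stood at 8.58 and 8.47 CPM in WT against 16.9 and 13.4 CPM in SDHA-KO CD4 cells, a log2 fold change of 0.83 ± 0.13 (SE, adjusted p = 0.000391). Gldc, the glycine decarboxylase, stood at 0.365 and 0.662 CPM in WT against 2.96 and 2.48 CPM in SDHA-KO CD8 cells, a log2 fold change of 2.38 ± 0.45 (SE, adjusted p = 0.00182).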
